A study of Homo sapiens with 12 samples.

Results

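Imprinted clusters of microRNA genes lie on human chromosomes 14 and 19. The members described here are the precursor genes in the deposited counts whose GENCODE v44 gene (hg38) is of the type miRNA and lies wholly, on the plus strand, in a window around the DLK1-DIO3 region of chromosome 14 or in a window of chromosome 19 that holds the cluster C19MC. The rule goes by position. They are 101 of the 1881 precursor genes, 52 on chromosome 14 and 49 on chromosome 19. Of the 49, 46 belong to C19MC, and 3 (MIR371A, MIR372 and MIR373) lie downstream of it in a cluster of their own and are also given apart.

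The study sequenced small RNA from A375, a line of human melanoma cells sensitive to the BRAF inhibitor dabrafenib, and from A375-BIR, which was selected from A375 by culture in rising amounts of dabrafenib. By its title, it set out to profile the small RNAs of both lines under the drug. There are 4 groups of 3 libraries: A375 in 0.1% DMSO (the vehicle), A375 in 200 nM dabrafenib, A375-BIR in 0.1% DMSO and A375-BIR in 200 nM dabrafenib, each after 48 h. The labels call the 3 libraries of a group biological replicates, and both lines were grown in RPMI with 10% FBS. These libraries hold 1 resistant line, so its resistance and any other trait of that derivation cannot be told apart.

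In the DLK1-DIO3 region, the microRNAs are cut from long non-coding transcripts of the maternal chromosome, such as those of MEG3, MEG8 and MEG9, while the paternal copy is methylated and silent. C19MC is found in primates, is transcribed from the paternal chromosome mainly in the placenta and in early embryonic cells, and is methylated and silent in most adult tissues, and the neighbouring MIR371A to MIR373 are known from embryonic stem cells and germ cell tumours. Lowered levels of the chromosome 14 microRNAs have been described in melanoma.

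Mature sequences were taken from RefSeq (GRCh38.p14), where 100 of the 101 members had an entry and MIR527 had none. Each is written 5′ to 3′ with its seed, bases 2 to 8, in capitals. The counts do not tell the 5p arm from the 3p arm, so both arms are shown where both are listed. The first set holds the chromosome 14 members with at least 10 counts over the 12 libraries, MIR127, MIR409, MIR432 and MIR382, and no seed in it is shared.
miR-127-5p: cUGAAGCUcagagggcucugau
miR-127-3p: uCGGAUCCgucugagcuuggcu
miR-409-5p: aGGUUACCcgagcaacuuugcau
miR-409-3p: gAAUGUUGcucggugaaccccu
miR-432-5p: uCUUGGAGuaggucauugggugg
miR-432-3p: cUGGAUGGcuccuccaugucu
miR-382-5p: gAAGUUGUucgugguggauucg
miR-382-3p: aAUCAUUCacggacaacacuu
The second set, on chromosome 19, shows the seed that MIR373, the member of this window with the most counts, has in common with C19MC members and with MIR372.
miR-373-3p: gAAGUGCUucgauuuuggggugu
miR-372-3p: aAAGUGCUgcgacauuugagcgu
miR-520a-3p: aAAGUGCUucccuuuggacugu
The next set holds the other chromosome 19 members to which the comparisons below return, with miR-520g-3p and miR-520h side by side because they share a seed, and with the other arm of MIR373.
miR-520g-3p: aCAAAGUGcuucccuuuagagugu
miR-520h: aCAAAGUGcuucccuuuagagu
miR-520g-5p: uCUAGAGGaagcacuuucuguuu
miR-512-5p: cACUCAGCcuugagggcacuuuc
miR-512-3p: aAGUGCUGucauagcugagguc
miR-1323: uCAAAACUgaggggcauuuucu
miR-373-5p: aCUCAAAAugggggcgcuuucc
The last set is shown because reads of its first sequence cannot be placed on a single member. This sequence is the 5p arm of 6 members, listed here under MIR518E and MIR519A1, and the 3p arms of these 2 members differ.
miR-518e-5p: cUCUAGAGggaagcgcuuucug
miR-519a-5p: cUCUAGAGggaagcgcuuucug
miR-518e-3p: aAAGCGCUucccuucagagug
miR-519a-3p: aAAGUGCAuccuuuuagagugu

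Expected counts, the deposited unit, can be fractions because a read that suits several precursors is divided among them. They summed to a median of 86898 in the A375 DMSO libraries (range 77264 to 121802), to 47507 in A375 with dabrafenib (36955 to 51532), to 120625 in A375-BIR with DMSO (106427 to 122792) and to 47607 in A375-BIR with dabrafenib (35070 to 59899). By the limit of 3 counts that a count of 0 allows, a member without counts may still stand at 24.4 CPM (counts scaled by library total) where depth was greatest and at 85.5 CPM where it was least. All such limits, and all intervals given here, cover counting error only, because reads without molecular identifiers are not independent molecules.

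Most members of both clusters had hardly any counts, as had most precursors in the deposited data, whose median was 0.11 counts over the 12 libraries. On chromosome 14, 20 of the 52 members (38.5%) reached 1 count in some library and 32 were at 0 in all 12. In the chromosome 19 window 18 of 49 (36.7%) reached 1 count, 13 were at 0 throughout, and 18 others had only fractions that never came to 1. Among the 1780 precursors outside the windows, 781 (43.9%) reached 1 count and 859 were at 0 in all 12. At this limit of 1 count the members' shares lay near the outside share, so a lack of any count is not particular to the clusters. At least 10 counts over all libraries were reached by 358 outside precursors (20.1%). Smaller shares of the members reached this limit, 4 of 52 on chromosome 14 and 2 of 49 on chromosome 19. The summed counts were 149 for chromosome 14, 163 CPM over all libraries, and 101.65 for the chromosome 19 window, 111 CPM. In these bulk libraries, a few cells that make a cluster's microRNAs and a low level in every cell cannot be told apart. With every library thinned by formula to the smallest total, 15.1 members of the chromosome 14 cluster and 15.0 of the chromosome 19 window would be expected to keep a count.

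**Figure D1:**
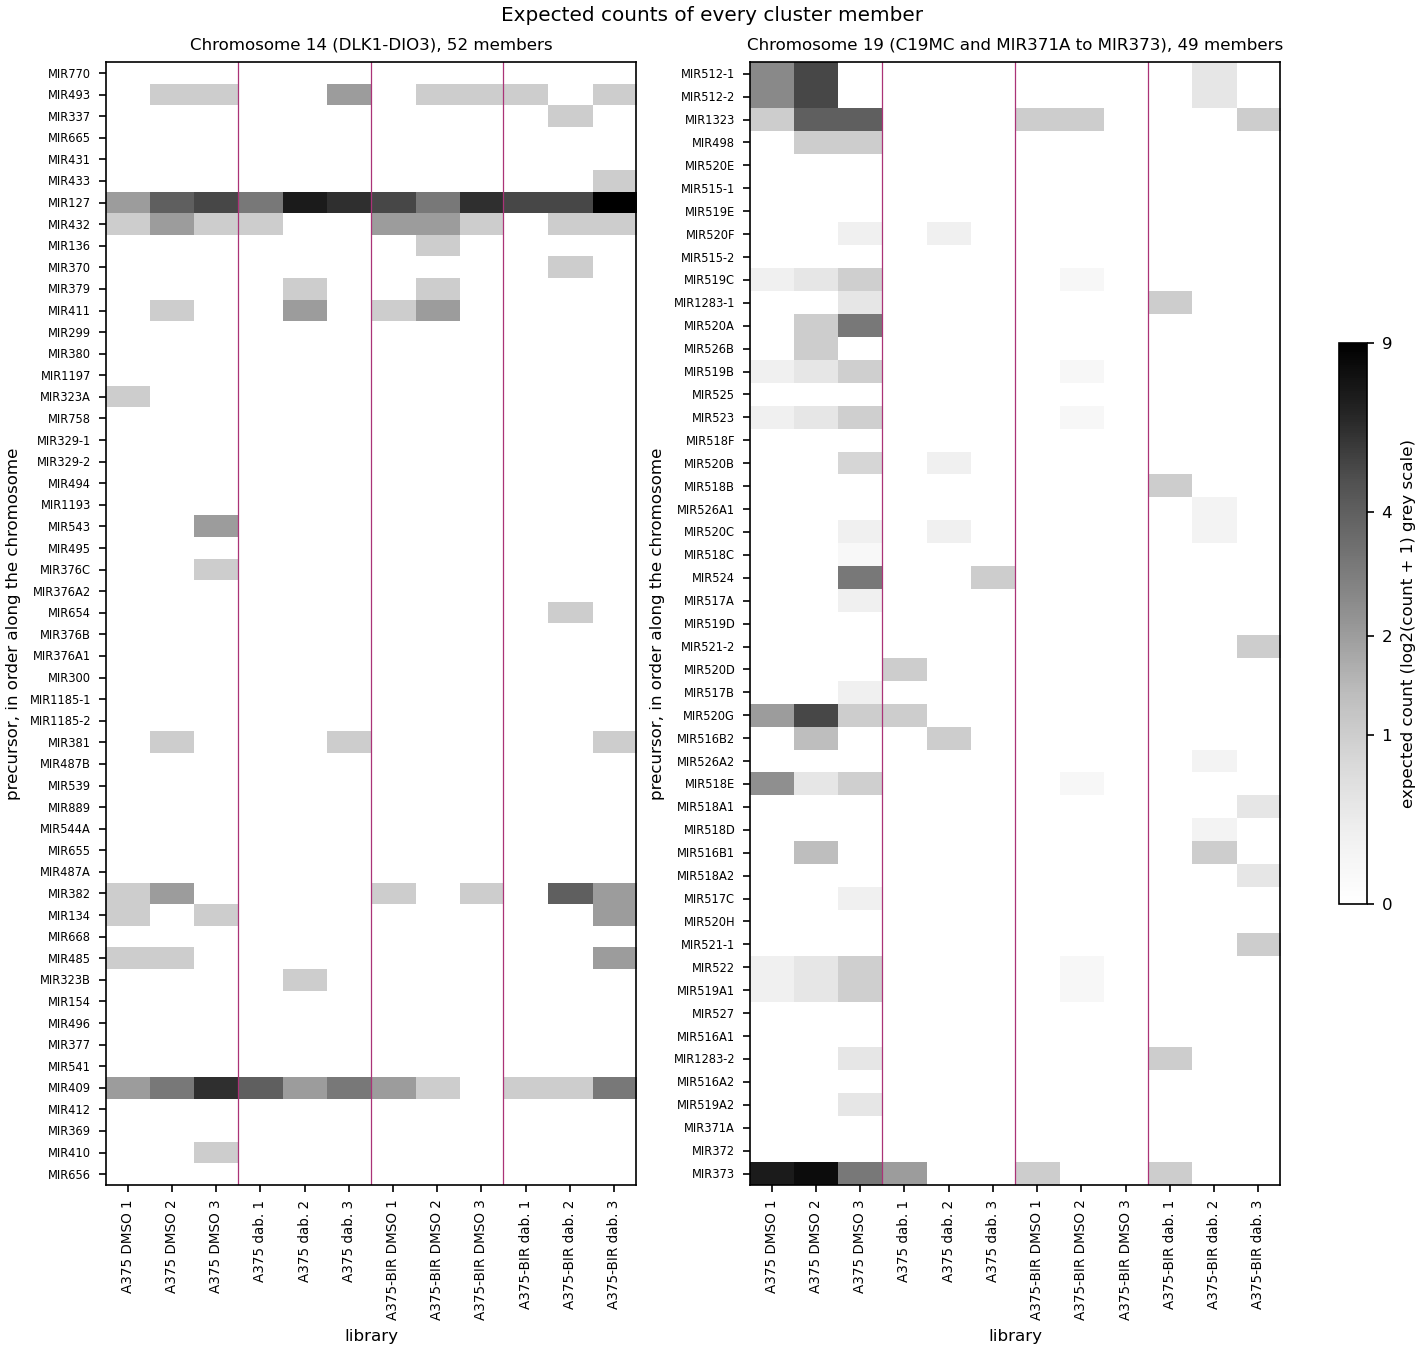
Expected counts of the 52 chromosome 14 members and the 49 members of the chromosome 19 window, ordered along the chromosome (vertical axis), in each of the 12 libraries (horizontal axis), on a grey scale of log2(count + 1) from 0 to 9 counts. MIR127 is the only line of marks that crosses all 12 libraries, and the chromosome 19 marks gather in the 3 A375 DMSO libraries.

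The map of counts by member shows where in each window the few counts lie. Among the blocks of chromosome 14, the one from MIR493 to MIR136 had 6 of 8 members with a count and 83 counts in all, and the long block from MIR379 to MIR656 had 13 of 42 and 65 counts. MIR370, between them, had 1 count, and MIR770, the first member, had 0. MIR127 alone held 40.3% of the 149 counts, and was the only member with a count in all 12 libraries. MIR409 followed with 28 counts, so that these 2 members held 59.1%. Next came MIR432 with 12, MIR382 with 11, MIR493 with 8 and MIR411 with 6 counts. Of the other landmarks, MIR379 had 2 counts, MIR136 and MIR410 had 1 each, and MIR431 and MIR656 had 0. In all, 9 members had a count in at least 3 libraries and 10 in exactly 1.

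In the annotation (hg38, GENCODE v44, plus strand), MIR127 lies on chromosome 14 from 100882979 to 100883075 in an exon of MIR493HG, opposite an exon of RTL1, a gene derived from a retrotransposon that is transcribed from the other strand and the other parental copy. MIR432 lies close by, from 100884483 to 100884576. MIR382, from 101054306 to 101054381, and MIR409, from 101065300 to 101065378, are far into the second block, in an exon and an intron of MEG9. On chromosome 19, MIR1323 (53671968 to 53672040) and MIR520G (53722166 to 53722255) are in introns of an unnamed long non-coding gene that spans C19MC, and MIR373 (53788705 to 53788773) is in an exon of another.

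The chromosome 19 counts were spread over more members and less well placed. MIR373 had 22 of the 101.65 counts, MIR1323 had 12 and MIR520G had 9, while MIR371A and MIR372 had 0. C19MC without these 3 downstream members had 17 of 46 members with a count and 79.65 counts. Landmarks of C19MC stood low: MIR498 had 2 counts, MIR519A1 1.98, MIR1283-1 1.5, MIR517A 0.33 and MIR515-1 0. Sequence likeness limits what a single member can show here, since 44 of the 49 members share 18 bases in a row with another member (14 of 52 on chromosome 14), and 29.2% of the counts were fractions, against 0% on chromosome 14. None of the 101 members shares 18 bases with a precursor outside the windows. Joined where a mature sequence is identical, directly or through other members, the 49 members form 29 units, of which 9 hold several precursors. The precursors of a unit need not all have the same mature sequence.

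**Figure D2:**
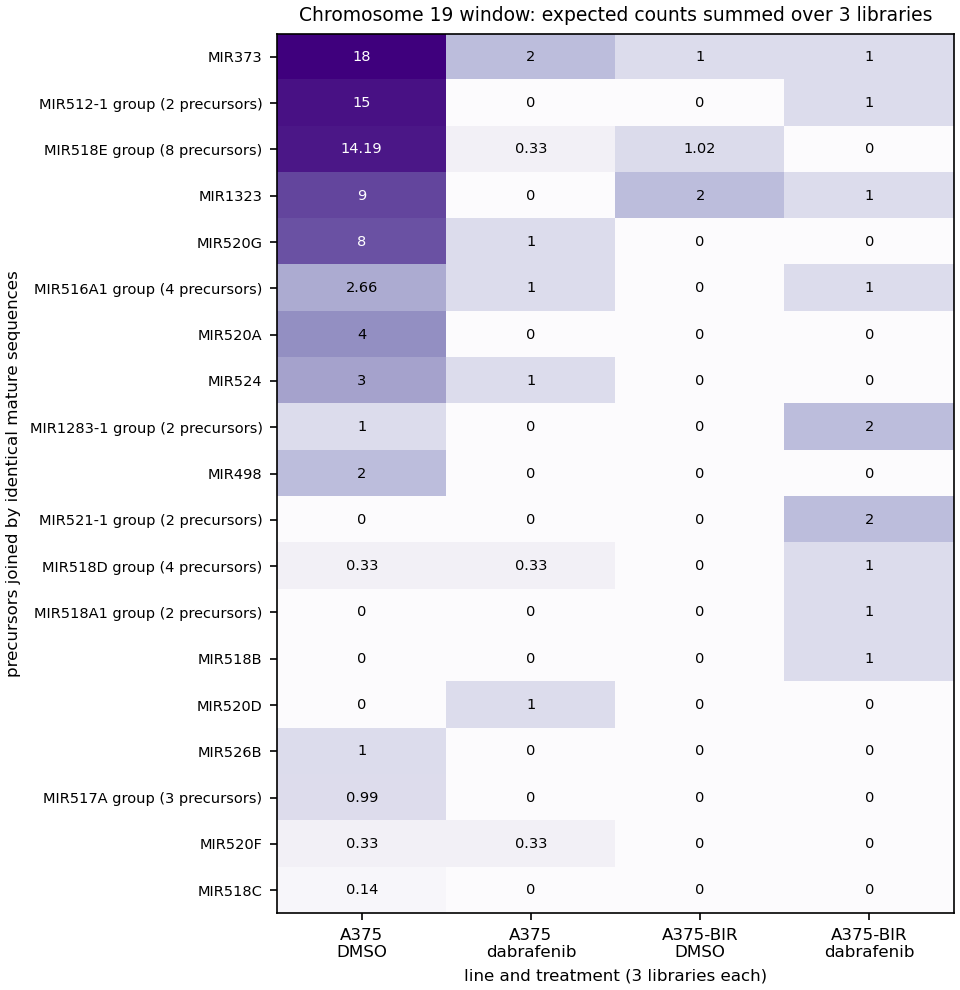
Expected counts of the chromosome 19 members (vertical axis), joined where mature sequences are identical, directly or through other members. Counts are summed over the 3 libraries of each line and treatment (horizontal axis), with the sum printed in each field. A375 in DMSO holds 18 counts of MIR373, 15 of the MIR512-1 pair and 14.19 of the 8 precursors around MIR518E, and the other groups hold no more than 2 of any unit.

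Joined in this way, the pair MIR512-1 and MIR512-2 had 16 counts, and the 8 precursors MIR519C, MIR519B, MIR523, MIR520B, MIR518E, MIR522, MIR519A1 and MIR519A2 (the MIR518E unit) had 15.54. The heat map of joined counts also shows which units appear in A375-BIR with dabrafenib, where 11 counts were spread over 9 units. The MIR1283 pair and the MIR521 pair had 2 each there. The units of MIR518A1, MIR518B, MIR518D, MIR516A1, MIR512-1, MIR1323 and MIR373 had 1 each. MIR520G, MIR520A and MIR524, with 8, 4 and 3 counts in A375 with DMSO, had 0 in A375-BIR with dabrafenib. MIR520A, MIR524 and the joined units were chosen for naming after their values were seen.

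Other runs of neighbouring precursors show how low these levels are. There are 11 runs of at least 5 precursors on 1 strand with gaps of at most 10 kb, 8 of them outside the windows. MIR379 to MIR656 had 1.55 counts per precursor, C19MC (MIR512-1 to MIR519A2) 1.73 and MIR493 to MIR136 10.4. The 8 other runs had a median of 36.7 counts per precursor and 55% of their precursors with a count. MIR367 to MIR302B, a cluster of embryonic stem cells, and MIR892C to MIR891B had 0 counts, and the run from MIR3689C to MIR3689F had 0.723 per precursor. At the other end stood MIR17 to MIR92A1, the miR-17-92 cluster of proliferating cells, with 1057 per precursor, although MIR92A1 alone holds 5894.33 of its 6343.33 counts and MIR19A has 3. With DMSO the run stood at 6062 ± 770 CPM in A375 libraries and at 7316 ± 2266 CPM in those of A375-BIR (SD, n = 3 each).

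**Figure D3:**
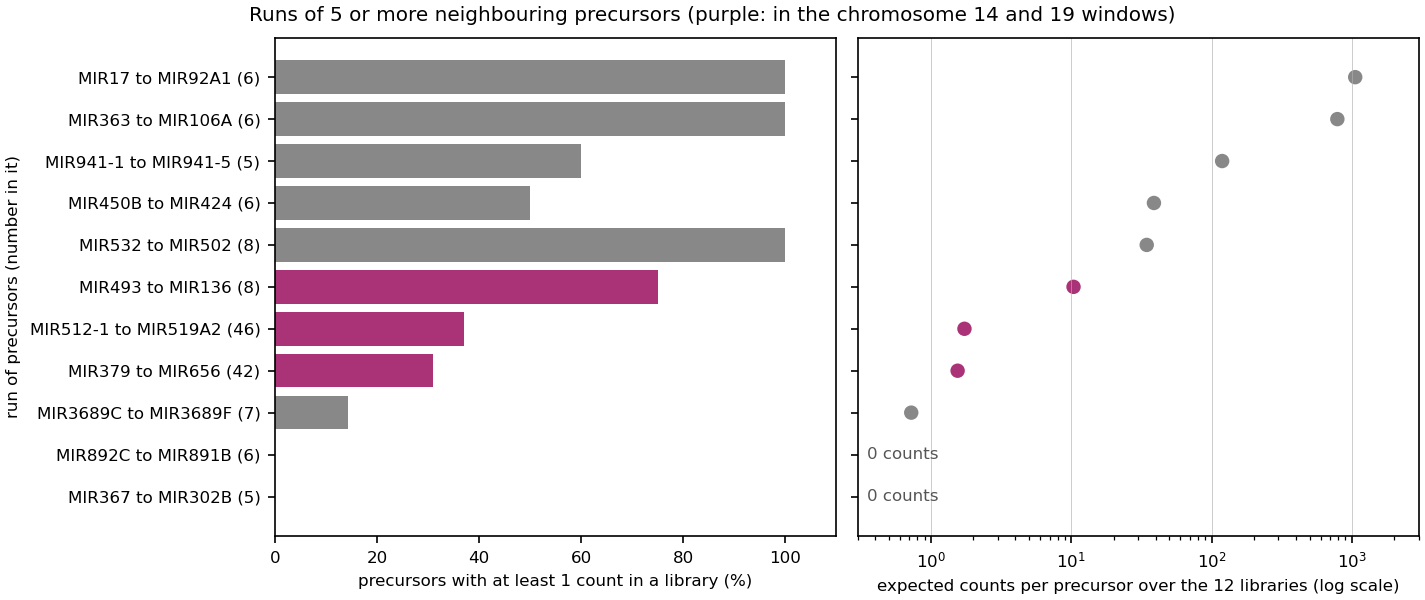
Share of precursors with at least 1 count in a library (left, percent) and expected counts per precursor over the 12 libraries (right, log scale) for the 11 runs of 5 or more neighbouring precursors, with the number of precursors in parentheses. The purple runs of the chromosome 14 and 19 windows have 1.55, 1.73 and 10.4 counts per precursor, above 3 other runs and below the 5 that have between 34.5 and 1057.

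The clusters share no seed. The 95 mature sequences of chromosome 14 members hold 80 seeds, and the 86 of the chromosome 19 members hold 38, with 0 in common. On chromosome 19 the seed UCUAGAG is carried by 11 members, with 15.54 counts together, of which 13.19 were in A375 with DMSO. The seed AAGUGCU, seen above in miR-373-3p, is carried by MIR372, MIR373 and MIR520A to MIR520E, 7 members with 29.07 counts. Outside the windows it is found in MIR302A to MIR302E, and MIR302A, MIR302B, MIR302C and MIR302D had 0 counts. By contrast AAAGUGC, the seed of MIR519D and MIR526B with 1 count between them, is also that of MIR17, MIR20A, MIR20B, MIR93, MIR106A and MIR106B, and MIR93 alone had 6792 counts. The 10 listed outside precursors with a C19MC seed summed, with DMSO, to 9160 ± 1597 CPM in A375 libraries and to 14738 ± 3958 CPM in those of A375-BIR (SD, n = 3 each).

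The chromosome 14 sum, as CPM, was higher with dabrafenib than with DMSO in both lines, and in DMSO it was somewhat higher in A375 than in A375-BIR. Sums are given in CPM of the library total times its TMM factor, an edgeR scaling. In A375 they were 107, 113 and 188 CPM with DMSO (136 ± 44.9, SD, n = 3) and 207, 364 and 395 CPM with dabrafenib (322 ± 101). In A375-BIR they were 99.0, 85.6 and 61.7 CPM with DMSO (82.1 ± 18.9) and 189, 208 and 441 CPM with dabrafenib (279 ± 140). All dabrafenib libraries of a line lay above all its DMSO libraries, the third A375-BIR dabrafenib library stood far above the other two, and with dabrafenib the lines overlapped. The fibroblast and smooth muscle list, most of it MIR143, was higher with dabrafenib too, at 785 ± 246 against 231 ± 15.8 CPM in A375-BIR without overlap. Its part in the difference was not tested, and the values of other lists, some higher and some lower with the drug, follow at the end. These sums rest on 7 to 22 counts a library. Pooled, A375 had 42 counts with DMSO and 33 with dabrafenib, of 285964 and 135994 counts in all. A375-BIR had 31 with DMSO and 43 with dabrafenib, of 349844 and 142575. In A375 the higher CPM with the drug thus goes with fewer member counts in smaller libraries, and the part of depth was not tested. No p is given for a sum, since it is a score over chosen members, and the comparison of lines in DMSO shares its A375 libraries with that of dabrafenib in A375.

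Dabrafenib minus DMSO came to 186 CPM for chromosome 14 in A375, a ratio of pooled counts per library total of 1.65 (exact 95% interval 1.01 to 2.67). Without MIR127 the difference was 64.5 CPM, and with library totals alone as the scaling it was 99.5 CPM, and under either the groups overlapped. In A375-BIR the difference was 197 CPM (pooled ratio 3.40, exact 95% interval 2.10 to 5.59). It was 116 CPM without the third A375-BIR dabrafenib library, and 104 CPM without MIR127, where the groups again overlapped. Between the lines in DMSO, A375-BIR minus A375 was -53.6 CPM (A375 over A375-BIR 1.66, exact 95% interval 1.02 to 2.73), and -27.5 CPM without the third A375 DMSO library. With dabrafenib the line difference was -42.6 CPM with TMM, -39.7 CPM with DESeq2's size factors and 50.0 CPM with library totals, so that its sign turned with the scaling. The other 3 differences kept their sign under all 3 scalings.

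By block, the line difference of chromosome 14 in DMSO lay from MIR379 to MIR656, where MIR409 had the most counts. Only MIR493 to MIR136, most of it MIR127, separated the treatments. MIR493 to MIR136 summed to 53.7 ± 18.7 CPM in A375 with DMSO and 188 ± 80.2 CPM with dabrafenib, and in A375-BIR to 57.5 ± 4.81 and 169 ± 68.4 CPM (SD, n = 3 each). The treatments did not overlap in either line, and the lines overlapped in either treatment. MIR127 alone held 72.3% of the counts of this block. Its own mean was higher with the drug by 122 CPM (A375) and by 93.3 CPM (A375-BIR). Every other member of the block, taken singly, overlapped between treatments in both lines, so the separation is not read as one of the whole block. MIR379 to MIR656 summed, with DMSO, to 82.0 ± 28.7 CPM in A375 libraries and to 24.7 ± 15.6 CPM in those of A375-BIR, without overlap (pooled ratio 3.40, exact 95% interval 1.53 to 8.27). With dabrafenib it stood at 134 ± 32.4 and 106 ± 87.9 CPM, and there the lines overlapped, as did the treatments within each line. Dabrafenib minus DMSO in A375 was 134 CPM for MIR493 to MIR136 (pooled ratio 2.35, exact 95% interval 1.16 to 4.81) and 52.3 CPM for MIR379 to MIR656 (1.18, exact 95% interval 0.566 to 2.35). In A375-BIR it was 111 CPM (2.79, exact 95% interval 1.51 to 5.19) and 80.9 CPM (4.63, exact 95% interval 1.95 to 11.8). The second block there had 1, 6 and 10 counts with dabrafenib, 27, 89.3 and 200 CPM, so its difference leans on the third library. The difference between the blocks was not tested.

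In DMSO the lines differed more in the sum of the chromosome 19 window than in that of chromosome 14. In A375 with DMSO the members summed to 225, 268 and 260 CPM (251 ± 22.9, SD, n = 3), and in A375-BIR with DMSO to 18, 15.7 and 0 CPM (11.2 ± 9.80). With dabrafenib they summed to 103, 55.7 and 32.9 CPM in A375 (64.0 ± 36.0) and to 108, 44.6 and 80.2 CPM in A375-BIR (77.5 ± 31.7). The 3 A375 DMSO libraries stood above the 9 others, the 3 A375-BIR DMSO libraries below them, and the dabrafenib libraries of the lines overlapped in between. The A375 DMSO libraries held 78.3% of the window's counts and 31.3% of all counts, while for chromosome 14 they held 28.2%.

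**Figure D4:**
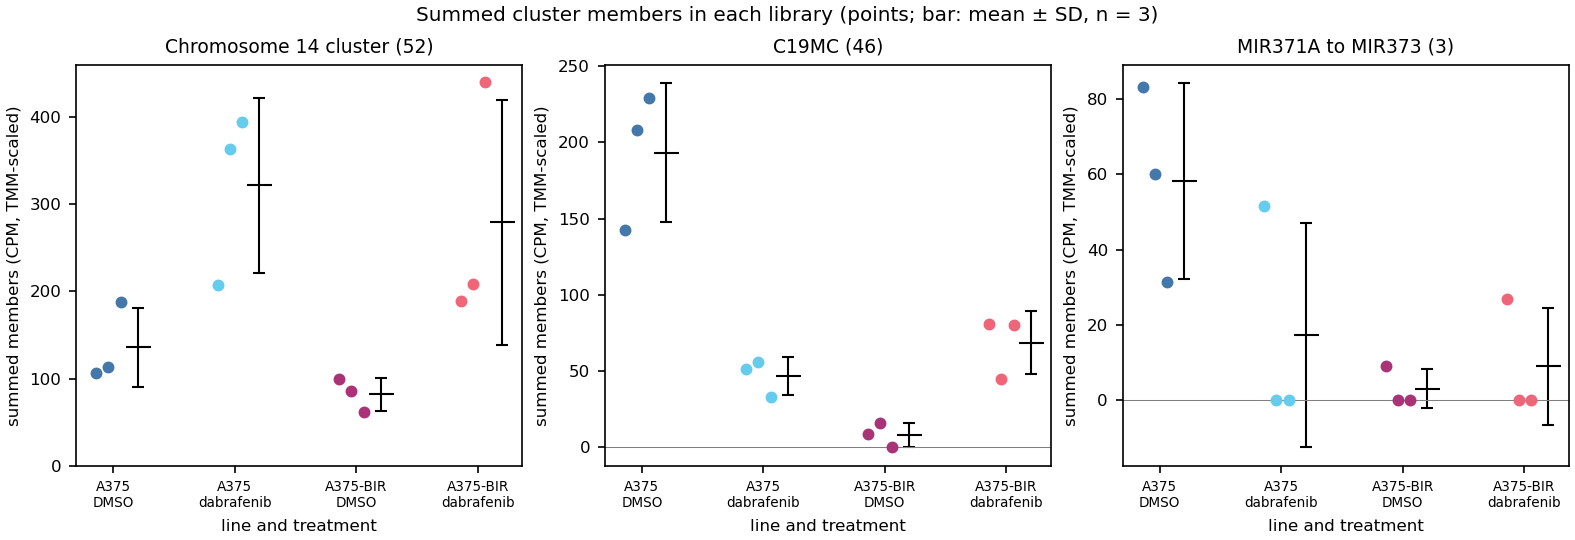
Summed members of the chromosome 14 cluster, of C19MC and of MIR371A to MIR373 in CPM (library total times TMM factor, vertical axes that include 0) for each line and treatment, with 1 point a library and the mean and SD of 3 beside them. C19MC stands at 193 ± 45.4 CPM in A375 with DMSO and at 8.24 ± 7.89 CPM in A375-BIR with DMSO, and the chromosome 14 cluster is higher with dabrafenib in both lines.

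In DMSO, A375-BIR minus A375 was -240 CPM for the chromosome 19 window, on 79.64 counts against 4.02 (A375 over A375-BIR 24.5, exact 95% interval 9.19 to 92.0). Leaving out each library in turn gave -251 to -230 CPM, and without MIR373 the difference was -185 CPM. Dabrafenib minus DMSO was -187 CPM in A375, on 6.99 counts with the drug (DMSO over dabrafenib 5.44, exact 95% interval 2.52 to 14). In A375-BIR the same difference was 66.3 CPM, on 11 counts (dabrafenib over DMSO 6.75, exact 95% interval 2.00 to 29.1). There the groups did not overlap, except when the expected counts were rounded, which gave 52.3 CPM. Between the lines with dabrafenib the groups overlapped, with a difference of 13.5 CPM (A375-BIR over A375 1.5, exact 95% interval 0.531 to 4.56), and -2.08 to 37 CPM with each library left out. All 4 differences kept their sign under the 3 scalings, and the first 2 share the A375 DMSO libraries.

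C19MC alone behaved like the whole window. In A375 it summed to 142, 208 and 229 CPM with DMSO and to 51.7, 55.7 and 32.9 CPM with dabrafenib. In A375-BIR it summed to 9.0, 15.7 and 0 CPM with DMSO and to 80.9, 44.6 and 80.2 CPM with dabrafenib. Every A375 DMSO library was above every other library, and every A375-BIR DMSO library was below every other. In DMSO, A375 over A375-BIR was 25.3 (exact 95% interval 8.26 to 126). In A375, DMSO over dabrafenib was 5.90 (exact 95% interval 2.40 to 18.8), and in A375-BIR dabrafenib over DMSO was 8.18 (exact 95% interval 2.11 to 46.3).

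The group sums and levels in CPM use the TMM factors of the standard filter, which were 0.69 to 0.82 in the A375 dabrafenib libraries and 1.04 to 1.19 in the others. The fits with the wider filter described next, and the medians given here, use factors of their own, 0.909 to 0.954 and 0.899 to 1.26. Over the 538 precursors tested with the wider filter, the median log2 difference of the lines with dabrafenib, A375 over A375-BIR, was -0.19 with TMM, 0.00 with DESeq2's size factors and -0.43 with library totals. For the lines in DMSO it was 0.11, 0.27 and 0.13. For dabrafenib over DMSO it was -0.12, 0.00 and -0.21 in A375 and 0.00, 0.07 and 0.16 in A375-BIR. Differences of members on the log2 scale are to be read against these medians.

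Too few counts fell on the members for the standard fit. edgeR's quasi-likelihood test, after its filter on low counts, tested 175 precursors, none of them a member, so 0 members could be called there by edgeR or DESeq2, and 0 at an unadjusted p under 0.05. In that fit 105 of 175 (60.0%) differed between the lines over both treatments, 81 (46.3%) in DMSO, 81 (46.3%) with dabrafenib, 44 (25.1%) between treatments in A375, 36 (20.6%) between treatments in A375-BIR, and 6 (3.43%) in their response, all at a false discovery rate (FDR) under 0.05. A wider filter, at least 1 CPM in at least 3 libraries, was used beside it: it kept 538 precursors and 12 members, 9 of chromosome 14 (MIR493, MIR127, MIR432, MIR411, MIR381, MIR382, MIR134, MIR485 and MIR409) and 3 of chromosome 19 (MIR1323, MIR520G and MIR373).

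With this wider filter, edgeR called 2 of the 12 members between the lines in DMSO, MIR373 and MIR520G, both higher in A375, where 103 of 538 precursors (19.1%) were called. MIR520G reaches the filter through A375 libraries alone and MIR373 through 4 A375 and 2 A375-BIR libraries, and their number is not read further. DESeq2's Wald test on the same precursors called 0 members in this comparison, with 1 at an unadjusted p under 0.05, against 2 in edgeR. Over both treatments edgeR called 0 of 12 members (3 at an unadjusted p under 0.05, 2 in DESeq2, which also called 0) and 134 of all (24.9%). Between the lines with dabrafenib it called 0 members (1 at an unadjusted p under 0.05, 0 in DESeq2, which called 0) and 90 of all (16.7%). For dabrafenib in A375 it called 0 members (2 at an unadjusted p under 0.05, 1 in DESeq2, which called 0) and 53 of all (9.85%). For dabrafenib in A375-BIR it called 0 members (1 at an unadjusted p under 0.05, 1 in DESeq2, which called 0) and again 53 of all (9.85%). The difference in response was called by edgeR for 0 members (2 at an unadjusted p under 0.05, 0 in DESeq2, which called 0) and for 5 of all (0.929%). With no filter 44 of 839 tested precursors were members, and edgeR called 1 of them, MIR373, between the lines in DMSO, with 96 called in all (11.4%).

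MIR373 is the precursor of a microRNA of embryonic stem cells and germ cell tumours. In DMSO it had 7, 8 and 3 counts in the A375 libraries, 83.1, 60.2 and 31.3 CPM, and 1, 0 and 0 counts in A375-BIR. With dabrafenib it had 2, 0 and 0 counts in A375 and 1, 0 and 0 in A375-BIR. The 3 A375 DMSO libraries lay above all A375-BIR libraries, while the first A375 dabrafenib library, at 51.7 CPM, lay within their range. In DMSO the means were 58.2 ± 26 and 3.00 ± 5.20 CPM (SD, n = 3 each), a pooled ratio of 22 (exact 95% interval 3.48 to 917). edgeR gave a log2 fold change of 3.83 (SE 1.22, FDR = 0.0110) for A375 over A375-BIR, with an FDR from 0.00359 to 0.0695 over 19 alternatives, 15 of them under 0.05, and 0.0200 with the replicate number as a block. The FDR was 0.0552 without the first A375 DMSO library, 0.0695 and 0.0610 without the second or the third A375-BIR DMSO library, and 0.0576 in DESeq2. Over both treatments MIR373 had an FDR of 0.0986 in edgeR, which became 0.0452 without the first A375-BIR DMSO library and 0.0416 without the first A375-BIR dabrafenib library. The difference in response was not called for it (log2 -2.75, FDR = 0.769 in edgeR).

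MIR520G, a C19MC member whose 3p seed is shared with MIR520H, had 2, 5 and 1 counts in A375 with DMSO and 1, 0 and 0 with dabrafenib. It had 0 in all 6 A375-BIR libraries. In DMSO the A375 libraries (23.9 ± 13.6 CPM, SD, n = 3) did not overlap those of A375-BIR, and A375 was at least 3.26-fold higher against 3 counts over the A375-BIR group (the exact 95% interval of the ratio starts at 2.09). It passed the wider filter only through A375 libraries, where it is high, so the edgeR call named above (FDR = 0.0416) is no support for a difference and the counts stand as a description. The FDR ran from 0.0339 to 0.177 over its alternatives, 11 of which stayed under 0.05 and 8 did not. The value of 0.177 is that with the replicate number as a block, so edgeR did not call MIR520G there.

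MIR1323, near the start of C19MC, had 1, 4 and 4 counts in A375 with DMSO and 0 with dabrafenib, and in A375-BIR 1, 1 and 0 counts with DMSO and 0, 0 and 1 with dabrafenib. In DMSO the lines did not overlap, at 27.9 ± 15.0 and 5.60 ± 4.88 CPM (SD, n = 3 each), a pooled ratio of 5.51 (exact 95% interval 1.14 to 52.4), but edgeR did not call it (log2 2.09, FDR = 0.270, and 0.202 to 0.540 over its alternatives). In A375 MIR1323 was at 0 with dabrafenib, which makes DMSO at least 1.43-fold higher against 3 counts over the group. The exact 95% interval of DMSO over dabrafenib starts lower, at 0.939, so at this depth no difference is read from it. The MIR512-1 pair had 5, 10 and 0 counts in A375 with DMSO and 0 in A375-BIR with DMSO, at least 6.12-fold higher in A375 against 3 counts over the group (the exact 95% interval starts at 4.39), but the third A375 DMSO library was at 0 too. The MIR518E unit had 3.98, 3 and 7.21 counts in A375 with DMSO against 0, 1.02 and 0 in A375-BIR, 48.3 ± 26.3 and 2.65 ± 4.58 CPM (SD, n = 3 each), without overlap and with a pooled ratio of 17.1 (exact 95% interval 2.61 to 724). With precursors of identical mature sequence joined before the fit, edgeR tested 500 units, called 86 between the lines in DMSO and called 4 of the 15 units of the clusters: MIR373, MIR520G, the MIR512-1 pair and the MIR518E unit. These 4 units have 18 of 22, 8 of 9, 15 of 16 and 14.19 of 15.54 counts in A375 with DMSO and all but MIR373 pass the filter only with those libraries. The joining was chosen after the data were seen, so the number 4 is not read as support for the line difference.

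MIR127 was the chromosome 14 member with the most counts. It had 2, 4 and 5 counts in A375 with DMSO and 3, 7 and 6 with dabrafenib, that is 23.7, 30.1 and 52.1 against 77.6, 196 and 197 CPM. In A375-BIR it had 5, 3 and 6 counts with DMSO and 5, 5 and 9 with dabrafenib, that is 45.0, 23.4 and 41.2 against 135, 74.4 and 180 CPM. In both lines all dabrafenib libraries were above all DMSO libraries, and the lines overlapped in either treatment. The pooled ratio of dabrafenib to DMSO was 3.06 (exact 95% interval 1.33 to 7.29) in A375 and 3.33 (exact 95% interval 1.58 to 7.18) in A375-BIR. Line by line, edgeR did not call it with the wider filter (log2 1.67, SE 0.73, FDR = 0.140 in A375, and 1.55, SE 0.69, FDR = 0.146 in A375-BIR). Over 19 alternatives its FDR was 0.0980 to 0.356 in A375 and 0.114 to 0.442 in A375-BIR.

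An exact two-sided permutation test over all 12 libraries exchanged treatment labels within each line, or line labels within each treatment, for the 364 precursors with at least 10 counts. These include 6 members, MIR127, MIR432, MIR382, MIR409, MIR1323 and MIR373. For dabrafenib it called 53 of 364 (14.6%) at an adjusted p under 0.05 and 1 member, MIR127, with a mean difference of 108 CPM (exact permutation p = 0.005, the smallest that the 400 arrangements allow, adjusted p = 0.0343). In 6 of 6 dabrafenib libraries MIR127 was above all DMSO libraries of the same line, and it stayed under an adjusted p of 0.05 with each scaling. Its adjusted p ran from 0.0322 to 0.114 over 17 alternatives, 11 of them under 0.05. It was 0.114, 0.109 and 0.110 without the first, the second or the third A375 DMSO library and 0.0958, 0.0941 and 0.0881 without the first, the second or the third A375-BIR DMSO library. It stayed under 0.05 without any 1 of the 6 dabrafenib libraries. Without the first or the second A375-BIR DMSO library the test called 0 of the 364 precursors.

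MIR409, in the second block of chromosome 14, had 2, 3 and 6 counts in A375 with DMSO and 2, 1 and 0 in A375-BIR, that is 23.7, 22.6 and 62.5 against 18, 7.79 and 0 CPM. With dabrafenib it had 4, 2 and 3 counts in A375 and 1, 1 and 3 in A375-BIR, that is 103, 56.0 and 98.7 against 27, 14.9 and 60.1 CPM. The lines did not overlap in DMSO (pooled ratio 4.49, exact 95% interval 1.18 to 25) and overlapped with dabrafenib. By the permutation test of the line, 96 of 364 precursors (26.4%) were called, and MIR409 was the 1 member among them, with A375-BIR minus A375 at -39.9 CPM over both treatments (exact permutation p = 0.01, adjusted p = 0.0379). Its adjusted p ran from 0.0236 to 0.129 over 17 alternatives, of which 5 were under 0.05. With library totals it was 0.100, with DESeq2's size factors 0.0612 and with a minimum of 5 counts 0.0502. Without the third A375 DMSO library it was 0.0700, without the first or the third A375 dabrafenib library 0.125 and 0.0984, without the A375-BIR DMSO libraries 0.0895, 0.104 and 0.129 in turn, and without the A375-BIR dabrafenib libraries 0.0867, 0.111 and 0.0557. edgeR did not call MIR409 in DMSO (log2 1.92, FDR = 0.220, and 0.151 to 0.524 over its alternatives) or over both treatments (log2 1.51, FDR = 0.129). For dabrafenib its difference was 37.6 CPM (exact permutation p = 0.02, adjusted p = 0.0910).

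**Figure D5:**
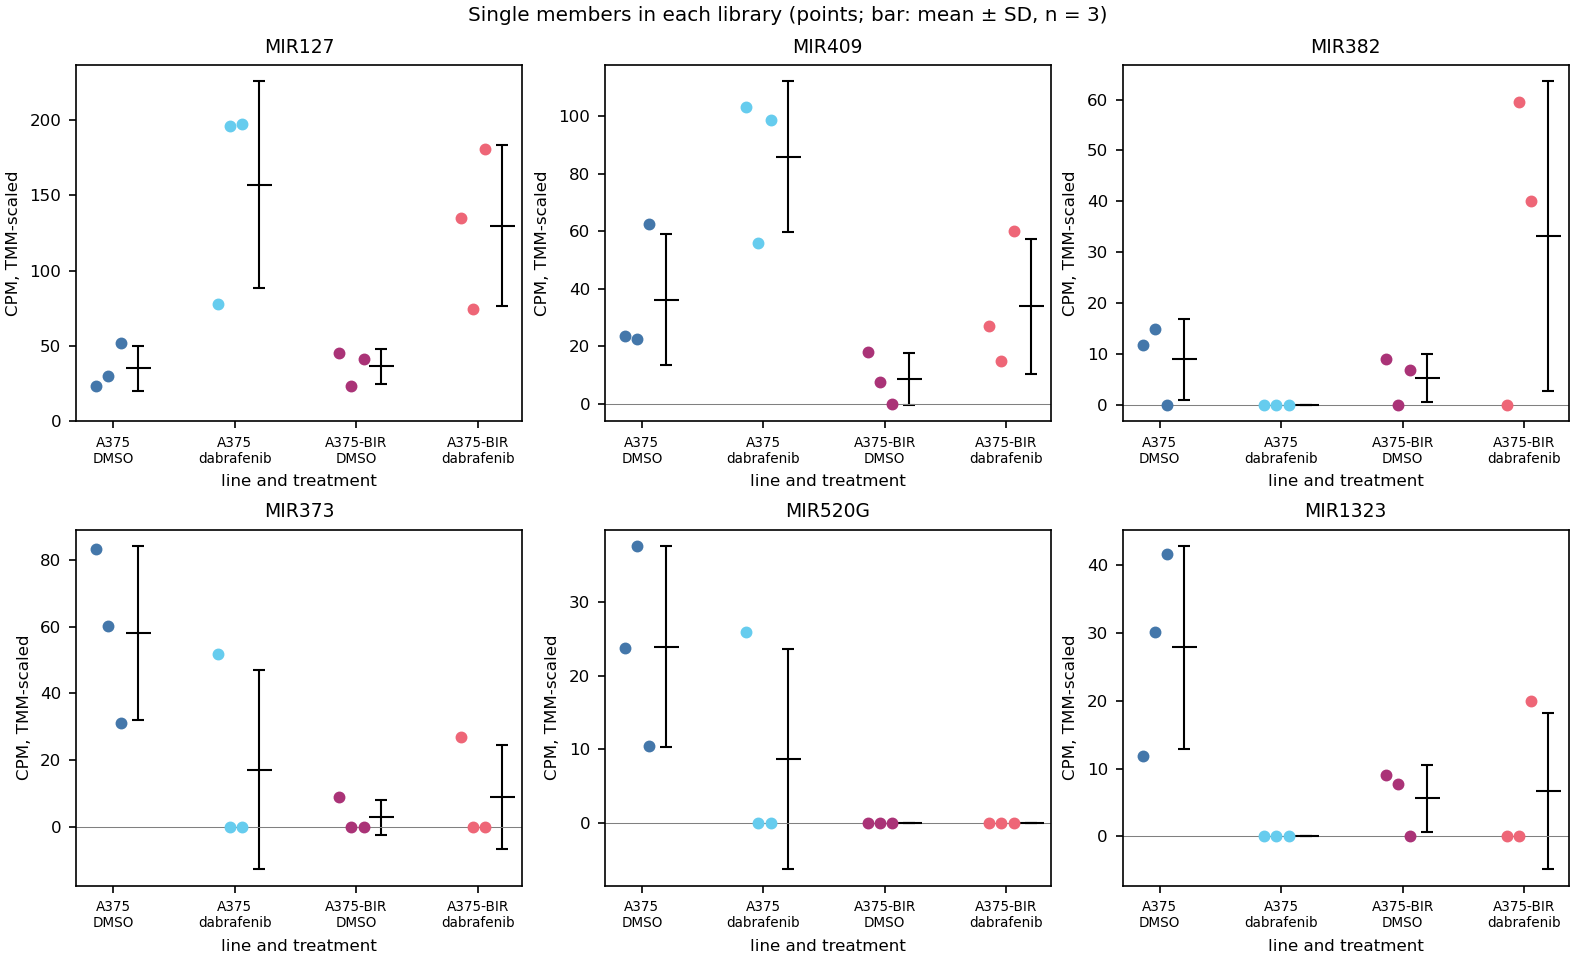
Level of MIR127, MIR409, MIR382, MIR373, MIR520G and MIR1323 in CPM (library total times TMM factor, vertical axes that include 0) for each line and treatment, with 1 point a library and the mean and SD of 3 beside them. MIR127 is higher in the dabrafenib libraries of both lines, and MIR373, MIR520G and MIR1323 are higher in A375 with DMSO than in A375-BIR with DMSO.

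Among the other tested members, MIR373 had an exact permutation p of 0.07 for the line (adjusted p = 0.170), with a mean difference of -31.7 CPM over both treatments. MIR432 had 12 counts, at most 2 a library, and MIR432 and MIR382 were called in no comparison. MIR382 had 0 counts in A375 with dabrafenib and 0, 4 and 2 in A375-BIR with dabrafenib, at least 1.91-fold higher in A375-BIR against 3 counts over the group (the exact 95% interval starts at 1.12), with overlapping groups. Its edgeR log2 fold change with the drug was -4.53 for A375 over A375-BIR (FDR = 0.169).

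Groups of 3 that do not overlap are common in these data. Between the lines in DMSO, 154 of the 364 precursors (42.3%) did not overlap, and neither did MIR409, MIR1323 and MIR373, 3 of the 6 members tested, all lower in A375-BIR. MIR373 and MIR1323 came to 10 counts mainly through the A375 DMSO libraries, so their place among the 6 and their direction are not separate facts. With dabrafenib, 118 of 364 (32.4%) did not overlap between the lines, and 0 members. Between treatments in A375, 122 of 364 (33.5%) did not overlap, with MIR127 higher with the drug. MIR1323 was at 0 in all 3 A375 dabrafenib libraries, where 3 counts are 58.2 to 81.2 CPM of the library total, so that it also did not overlap, which is not read as a lower level. Between treatments in A375-BIR, 102 of 364 (28%) did not overlap, with MIR127 higher. The members' shares are near these backgrounds or rest on so few members that nothing particular to the clusters follows from them.

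Of the listed imprinted precursors outside the windows, MIR296 of the GNAS region was counted most. These 6 precursors had 429.5 counts, 400 of them on MIR296, 21 on MIR335, 5 on MIR1247, 3 on MIR483, 0.5 on MIR675 of the H19 gene and 0 on MIR298. The list stood, with DMSO, at 287 ± 22.4 CPM in A375 libraries and at 662 ± 78.7 CPM in those of A375-BIR, and at 302 ± 87.6 and 350 ± 76.2 CPM with dabrafenib (SD, n = 3 each). In DMSO this sum was thus higher in A375-BIR, where both cluster sums were lower.

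The label of the lines was checked on marker precursors. Of 17 of the melanocyte lineage or melanoma, 10 had a count and 5 (MIR507, MIR510, MIR514A1, MIR514A2 and MIR514A3) were at 0, and MIR146A was the most counted with 9665.5 counts. MIR204 had 1265 counts and MIR211 had 44. The summed level was 27110 ± 1890 CPM in A375 with DMSO, 23090 ± 3513 CPM in A375 with dabrafenib, 1307 ± 262 CPM in A375-BIR with DMSO and 2152 ± 499 CPM in A375-BIR with dabrafenib (SD, n = 3 each). MIR146A makes up most of this sum, with 24085 ± 1884 CPM in A375 with DMSO, while MIR211 stood with DMSO at 20.5 ± 17.7 CPM in A375 libraries and at 19.9 ± 9.68 CPM in those of A375-BIR. This list moves with the line as the chromosome 19 sum in DMSO does, and its part in that difference was not tested. Markers of other cells were few: MIR122 of liver had 0 counts, the erythroid list 7 (all on MIR144, with MIR451A and MIR486-1 at 0), blood 32 (most on MIR142), muscle 20.2 (7.11 on MIR1-2, the most counted), endothelial MIR126 25, neural 185 (63.83 on MIR9-1, 60.33 on MIR9-2 and 60.83 on MIR9-3, with MIR124-1, MIR124-2 and MIR124-3 at 0), and the fibroblast and smooth muscle list 381.5, of which 363 on MIR143. Of 8 pluripotent markers 7 were at 0 (MIR302A, MIR302B, MIR302C, MIR302D, MIR367, MIR371A and MIR372), and the 22 counts of that list are those of MIR373.

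Lists of other cells differed between treatments in several ways. The fibroblast and smooth muscle list, 2 of 2 with counts, stood at 339 ± 238 CPM with DMSO and 608 ± 197 CPM with dabrafenib in A375, with overlap, and at 231 ± 15.8 and 785 ± 246 CPM in A375-BIR, without overlap (SD, n = 3 each). The blood list, 2 of 2 with counts, stood at 23.6 ± 12.3 and 46.7 ± 80.8 CPM in A375 and at 9.45 ± 10.4 and 94.7 ± 66.7 CPM in A375-BIR in the same order, and in A375 with dabrafenib 2 of the 3 libraries were at 0. The neural list, 3 of 6 with counts, stood at 220 ± 39.7 and 193 ± 112 CPM in A375, with overlap, and at 139 ± 74.4 and 278 ± 59.3 CPM in A375-BIR. Its lower mean with the drug in A375 rests on the third dabrafenib library, at 66.1 CPM against 233 and 280 CPM in the first and the second. In A375-BIR neither of these 2 lists overlapped between treatments. Endothelial MIR126, 1 of 1 with counts, stood at 7.92 ± 13.7 and 28.9 ± 3.61 CPM in A375, without overlap but on 1 count a library with the drug, and at 46 ± 15.3 and 18 ± 31.1 CPM in A375-BIR, with overlap. The muscle list, 5 of 5 with counts, stood at 23.3 ± 34.1 and 38.3 ± 15.8 CPM in A375 and at 12.4 ± 11.7 and 31.6 ± 24.6 CPM in A375-BIR, with overlap in both. Of the melanocyte lineage, MIR211 stood with dabrafenib at 179 ± 102 CPM in A375 libraries and at 73.5 ± 12.1 CPM in those of A375-BIR, above its DMSO levels given before. MIR204 stood at 1692 ± 159 CPM with DMSO and 6051 ± 2311 CPM with dabrafenib in A375, and at 133 ± 30.6 and 301 ± 159 CPM in A375-BIR. MIR146A stood, with dabrafenib, at 14707 ± 2620 CPM in A375, below its DMSO level, and in A375-BIR at 1108 ± 270 CPM with DMSO and 1635 ± 312 CPM with dabrafenib. Of the 17 precursors of that list, 6 were higher and 6 lower by their means with dabrafenib in A375, and 9 were higher and 0 lower in A375-BIR. Its sum was lower by its mean with dabrafenib in A375 and higher, without overlap, in A375-BIR. The part of all these lists in the chromosome 14 difference with dabrafenib was not tested.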

How the data were processed

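The authors processed the small RNA libraries with RSEM 1.2.25 on hg38 (their notes also name edgeR and R 4.0.2), and the deposited value is an expected count per precursor gene and library, without normalization. None of the 12 libraries was left out. Identifiers were matched to GENCODE v44 (1879 of 1881). Sums used expected counts as deposited. For tests they were rounded and fitted in edgeR 4.0.16 (R 4.3.3) with 1 mean per line and treatment, TMM and Benjamini-Hochberg adjustment over all tested precursors at 0.05. Exact permutation tests and Clopper-Pearson intervals used Python 3.11.15, pandas 2.3.3 and scipy 1.17.1, and figures matplotlib 3.10.9.

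The members and lists were chosen with earlier results of these data known. Named members are those that enter the edgeR fit, up to 10 a cluster with the most counts and at least 5, those called by a test, set landmarks, and MIR371A, MIR372 and MIR373. The alternatives to the wider filter, the permutation test on joined precursors, the naming of MIR381, MIR134 and MIR485 (which only that filter let in), the joined units, MIR520A and MIR524 were chosen after the data were seen.

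Same-numbered DMSO libraries of A375 and A375-BIR departed together from their group means (correlations 0.11, 0.22 and 0.30), the only pair of groups with all 3 over 0.1. A fit with the replicate number as a block pairs same-numbered libraries of all 4 groups, not of these alone. For dabrafenib against DMSO in A375-BIR the correlations were -0.32, 0.0058 and -0.54. Whether a number stands for a common batch is stated by neither labels nor paper. Alternatives were other filters, DESeq2 1.42.0 size factors and Wald test, library totals, only the libraries compared, the block, joined precursors, and leaving out each library.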

Additional observations from a re-analysis of the deposited data

Results flagged for a closer look

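The chromosome 19 sums differed between dabrafenib and DMSO in opposite directions in the lines. For the whole window, dabrafenib minus DMSO in the sensitive line was -187.389 CPM, while the resistant line had 66.2915 CPM. For C19MC alone these differences were -146.433 and 60.3086 CPM. In A375 every dabrafenib library was below every DMSO library, and in A375-BIR every dabrafenib library was above every DMSO library. For the whole window, the A375-BIR groups overlapped when the expected counts were rounded. The difference between the lines in this response was not tested, since no test is made on a sum of chosen members. The sums with dabrafenib rest on 6.99 counts in A375 and 11 in A375-BIR, and A375-BIR with DMSO on 4.02.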

How the results depend on the processing

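Of 573 alternatives to the values given, 497 kept the call or moved a value by less than the SD between replicates or a count of members at most 1.5-fold, 46 moved a value or count, 30 took a called member out of the calls, and 0 turned a called direction. The 497 do not all measure stability. Most refits of the standard fit kept its 175 precursors, none of them a member, so their 0 member calls were fixed beforehand. Leaving out members that share 18 bases with an outside precursor could change nothing either. The 497 include changes of sign of the chromosome 14 line difference with dabrafenib, -42.6 CPM, which was 50.0 CPM with library totals. They also include a change of sign of the chromosome 19 line difference with dabrafenib, 13.5 CPM, which reached -2.08 CPM with a library left out. No cause of these changes was tested. With filterByExpr the member count between the lines in DMSO was 0, and it became 2 with the filter of 1 CPM and 1 with no filter, where more members are tested. With the filter of 1 CPM this count of 2 became 1 with no filter, 0 in DESeq2's Wald test, 1 with the replicate block, and 4 with joined precursors, and it lay between 0 and 2 with each library left out. Over both treatments the count was 0 to 1 with each library left out. The block changed no other member count.

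The permutation count for the line, 1, became 0 with library totals, 0 with size factors and 0 with a minimum of 5 counts, and was 0 to 1 with each library left out, as was that for dabrafenib. Members with a count on chromosome 14 fell from 20 to 9 when 3 libraries were asked for and to 3 when 3 counts were. On chromosome 19 the 18 became 36 for any value above 0, 7 for 3 counts and 3 for 3 libraries. With each library left out the numbers were 17 to 20 and 15 to 18.

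The chromosome 14 difference for dabrafenib in A375 (186 CPM) was 99.5 CPM with library totals and 64.5 CPM without MIR127, and 152 to 244 CPM with each library left out. For the lines with dabrafenib, leaving out 1 library gave -123 to 2.66 CPM. The chromosome 19 line difference in DMSO (-240 CPM) was -264 CPM with library totals, -268 CPM with size factors, -211 CPM with rounded counts, and -185 CPM without MIR373, which equals the value without MIR371A, MIR372 and MIR373 since MIR371A and MIR372 are at 0. For dabrafenib in A375 (-187 CPM) it was -225 CPM with library totals and -146 CPM without MIR373 or without those 3. Leaving out members that share 18 bases with an outside precursor changes nothing, as there are 0. Depth limits all of this: a member at 0 in a library may stand at up to 24.4 to 85.5 CPM.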
